A study of Homo sapiens with 4 samples.

Results

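Of the 14431 genes listed, 10 were chosen by name. They encode sensors, regulators and effectors of the unfolded protein response (UPR) and of quality control in the endoplasmic reticulum (ER): XBP1, ERN1, ATF6, HERPUD1, SEL1L, SYVN1, EDEM1, PDIA4, CALR and CANX. A row was taken where the gene symbol in the table was one of these, and all 10 were found.

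RNA-Seq had been performed on HGC27, a human gastric cancer cell line, in 2 control libraries (genotype WT) and 2 libraries of cells transfected with siRNA against AARS1 (siAARS1, genotype AARS1 knockdown). AARS1 is the cytosolic alanyl-tRNA synthetase, which the study examined as an enzyme that also puts lactate onto proteins. Cells of both groups were kept in DMEM without glucose, with serum and antibiotics, and received 25 mM lactate, for 24 hours per the labels and for another duration per the study's text. The model is therefore 1 cell line with a transient and partial knockdown, and every library used here had lactate and no glucose.

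When misfolded proteins accumulate in the ER, the sensors IRE1 (encoded by ERN1), ATF6 and PERK (encoded by EIF2AK3) start the UPR. IRE1 cuts a short intron out of the XBP1 mRNA, ATF6 is cleaved in the Golgi to release a transcription factor, and PERK phosphorylates a translation initiation factor. Products of the UPR refold glycoproteins in the calnexin and calreticulin cycle or send them through the HRD1 complex to the proteasome, a route named ER-associated degradation. Glucose deprivation is a classical way to disturb folding in the ER, because glucose is needed for N-glycans.

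The sequence that IRE1 removes from XBP1 is shown because it is the point at which the pathway acts on this mRNA, and because the deposited gene-level values join both forms. In GENCODE, an annotated isoform of XBP1 lacks 26 bases that the reference isoform contains, at chr22:28796124-28796149 on the minus strand of GRCh38. Their removal shifts the reading frame and changes the predicted protein from 261 to 376 residues. Capitals mark the 26 bases within the surrounding coding sequence.
XBP1 intron: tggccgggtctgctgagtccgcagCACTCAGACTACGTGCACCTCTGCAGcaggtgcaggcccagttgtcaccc

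Promoter elements are shown because the ER stress response element (ERSE) and its variant ERSE-II are the sequences through which ATF6 and XBP1 act on many UPR genes. The searched letters were CCAAT, any 9 bases and CCACG for ERSE, and ATTGG, any 1 base and CCACG for ERSE-II, on both strands of RefSeq promoters (GRCh38.p14, 250 bases before to 50 after each start). All 10 genes had a promoter in that table. Counted by gene over all its listed starts, ERSE was found in 3 of them and ERSE-II in 1. Counted by single promoter, 0.0769% and 0.0541% of all 35116 promoters held these letters. The difference was not tested. Capitals mark the matched span in each 30-base window, which is on chromosome 22 (28800597 to 28800626) for XBP1, chromosome 19 (12938379 to 12938408) for CALR, chromosome 5 (179698773 to 179698802) for CANX and chromosome 16 (56932016 to 56932045) for HERPUD1.
XBP1, ERSE: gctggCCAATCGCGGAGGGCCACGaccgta
CALR, ERSE on the reverse strand: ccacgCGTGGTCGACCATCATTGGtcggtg
CANX, ERSE: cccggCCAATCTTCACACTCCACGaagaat
HERPUD1, ERSE-II: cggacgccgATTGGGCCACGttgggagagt

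The first base of the match lay at -225 from the start in CALR and at -117 in HERPUD1. It lay at -52 from the first of 2 listed starts in XBP1, and the promoter of the other XBP1 start held no match. In CANX it lay at -151 from the first of 4 listed starts. The CANX window lies within annotated exons of longer CANX transcripts. The UPR element core TGACGTGG (0.729% of promoters) and the C/EBP-ATF element TGATGCAAT (0.236%) were not found in these windows for any of the 10 genes.

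Between 30653210 and 33522573 reads fell in listed genes per library, at which depth 1 read equalled 0.0293 to 0.0324 CPM (reads scaled to library size). AARS1, listed as AARS (ENSG00000090861), had 428 and 417 CPM in the controls against 292 and 298 CPM after knockdown, which is 69.7% of control. Its log2 fold change was -0.52, and -0.32 and -0.38 after corrections for GC content of the whole transcript and of its coding sequence and 3' UTR. All 14431 listed genes exceeded 1 CPM in some library, so a gene that is not listed may have been below that level. Of the markers of the labelled tissue, 0 of 5 gastric markers and 2 of 5 epithelial markers were listed. The epithelial marker CDH1 was at 1.89 to 2.55 CPM in control and 0.680 to 1.05 CPM in siAARS1 libraries, and KRT8 was at 24.8 to 25.2 and 5.08 to 6.61 CPM. Both mesenchymal markers were listed. VIM was at 5068 to 5131 CPM in control and 4600 to 4710 CPM in siAARS1 libraries, and ZEB1, a transcription factor of the epithelial-mesenchymal transition, was at 6.16 to 6.84 and 50.03 to 52.3 CPM. The leukocyte and endothelial markers PTPRC, CD3E and PECAM1 were not listed, and CD68 did not exceed 1.10 CPM. COL1A1 and COL3A1, collagen genes typical of fibroblasts, were at 2320 to 2399 and 3654 to 3755 CPM in control and at 1541 to 1644 and 2610 to 2627 CPM in siAARS1 libraries. The part of these markers in the results was not tested. Nothing in the labels states that replicates came from separate cultures, so p-values measure the spread between these libraries, which may be technical.

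The 10 genes did not move as a block. SEL1L, CANX and ATF6 were higher in siAARS1 libraries, whereas XBP1, PDIA4, ERN1, HERPUD1, SYVN1 and CALR were lower, and EDEM1 did not pass the test. The log2 fold changes, siAARS1 over control on the log2(CPM + 1) scale, ran from -0.52 for XBP1 to 1.48 for SEL1L. With limma and an adjusted p-value (Benjamini-Hochberg over 14199 genes) under 0.05, 9 of the 10 genes were called, 3 higher and 6 lower. The same call was made for 70.7% of all genes tested, with 32.6% called higher and 38% called lower. All 10 genes had control and siAARS1 libraries that did not overlap, as did 85.1% of all genes tested. After corrections for GC content, described further on, CANX, ATF6, CALR and SYVN1 changed sign. The median log2 fold change was -0.17 for the 10 genes and -0.054 for all genes tested. Whether a lower CPM reflects fewer transcripts per cell or a different mixture of cells cannot be told apart in bulk RNA.

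**Figure D1:**
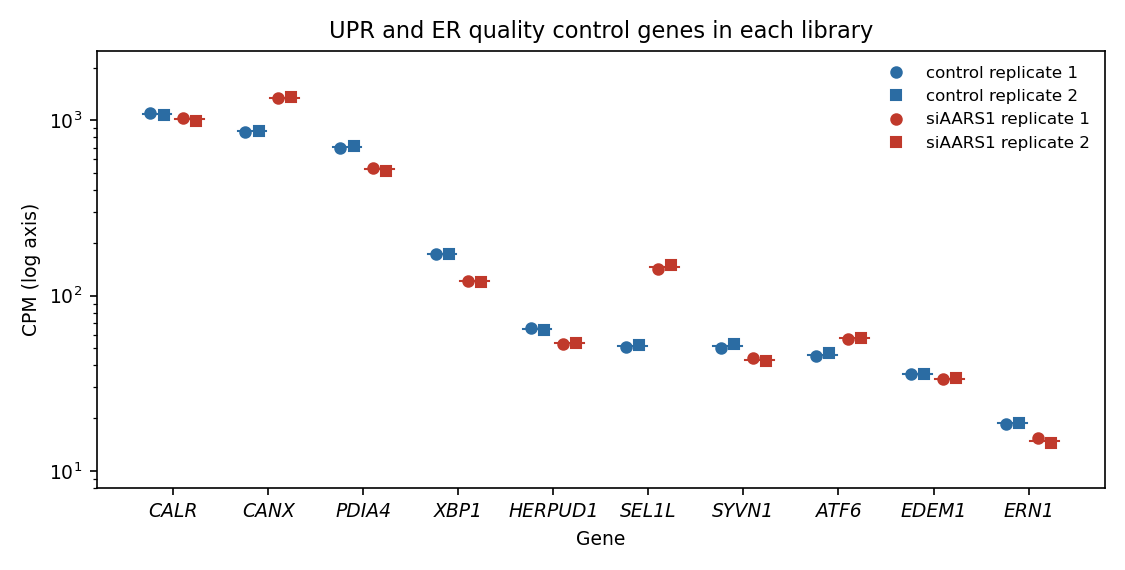
CPM of the 10 UPR and ER quality control genes (log axis) in each of the 4 libraries, ordered by their control mean, with circles for replicate 1, squares for replicate 2 and short lines for the mean of each group (n = 2). Replicates lie close together, and SEL1L shows the widest gap between the groups, from 50.9 and 52.0 CPM in control to 142 and 149 CPM in siAARS1 libraries.

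XBP1 (ENSG00000100219; chromosome 22, 28794555 to 28800597, minus strand, GRCh38) encodes the transcription factor made from the mRNA that IRE1 splices. It had 173 and 173 CPM in the controls against 121 and 119 CPM after knockdown. Both siAARS1 libraries were below both controls, with means of 173 ± 0.236 and 120 ± 1.40 CPM (SD, n = 2). The log2 fold change was -0.52 (SE 0.0398, adjusted p = 1.48e-10 by limma), the lowest of the 10 genes. These reads count spliced and unspliced XBP1 together, so the splicing by IRE1 was not measured.

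ERN1 (ENSG00000178607; chromosome 17, 64039142 to 64130819, minus strand) encodes IRE1 itself and was the least abundant of the 10 genes. It had 18.6 and 18.8 CPM in the controls against 15.3 and 14.4 CPM after knockdown, from 634 reads in control replicate 1 and 474 in siAARS1 replicate 1. The groups did not overlap, and the log2 fold change was -0.31 (SE 0.0815, adjusted p = 0.00207 by limma). The ratio of XBP1 to ERN1 in CPM per kilobase of transcript was 39.7 and 39.3 in control and 33.7 and 35.2 in siAARS1 libraries, so the ratio was lower in both siAARS1 libraries.

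ATF6 (ENSG00000118217; chromosome 1, 161766294 to 161964070, plus strand), the sensor released by cleavage in the Golgi, moved the other way. It had 45.0 and 47.1 CPM in the controls against 56.8 and 57.4 CPM after knockdown. Both siAARS1 libraries were above both controls, and the log2 fold change was 0.31 (SE 0.0530, adjusted p = 2.89e-05 by limma). The rise depended on the processing. With each library shifted to the same median, it was 0.086 and did not pass the test (adjusted p = 0.143 by limma). After the corrections for GC content of the transcript and of its coding sequence and 3' UTR, ATF6 was called lower, at -0.75 and -0.39.

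Of the HRD1 complex, which draws misfolded proteins out of the ER and ubiquitinates them, the subunits went apart before any correction for GC content. SEL1L (ENSG00000071537; chromosome 14, 81471549 to 81533861, minus strand), the adaptor that holds the complex together, had 50.9 and 52.0 CPM in the controls against 142 and 149 CPM after knockdown. Its mean rose from 51.4 ± 0.773 to 145 ± 5.31 CPM (SD, n = 2), a 2.82-fold difference. The log2 fold change of 1.48 (SE 0.0462, adjusted p = 2.69e-17 by limma) was the highest of the 10 genes and above that of 94.3% of all genes tested. After the correction for transcript GC content and length it was 0.15, above that of 66.2% of genes.

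SYVN1 (ENSG00000162298; chromosome 11, 65121780 to 65134533, minus strand), the ubiquitin ligase HRD1 for which the complex is named, had 50.03 and 52.7 CPM in the controls against 44.1 and 42.2 CPM after knockdown. Both siAARS1 libraries were below both controls, with a log2 fold change of -0.25 (SE 0.0556, adjusted p = 0.000527 by limma). After the corrections for the transcript and for its coding sequence and 3' UTR, SYVN1 was at 0.059 and 0.073 and did not pass in either. In CPM per kilobase, the ratio of SEL1L to SYVN1 was 0.404 and 0.392 in control and 1.27 and 1.40 in siAARS1 libraries. Without any correction for GC content, the adaptor transcript was thus below the ligase transcript in both controls and above it in both siAARS1 libraries. Exons of SYVN1 share 398 bases with FAU on the same strand and 356 bases with MRPL49 on the opposite strand, and reads there could have been counted for either gene.

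HERPUD1 (ENSG00000051108; chromosome 16, 56932048 to 56944863, plus strand), a membrane protein that joins the HRD1 complex and is induced early in ER stress, had 65.8 and 63.7 CPM in the controls against 53.2 and 53.5 CPM after knockdown. It was lower in both siAARS1 libraries, with a log2 fold change of -0.27 (SE 0.0503, adjusted p = 5.6e-05 by limma). EDEM1 (ENSG00000134109; chromosome 3, 5187646 to 5219957, plus strand), which trims mannose from glycoproteins that are to be degraded, had 35.9 and 35.7 CPM in the controls against 33.4 and 33.8 CPM after knockdown. Its groups did not overlap, but the log2 fold change of -0.091 (SE 0.0600) did not pass the test (adjusted p = 0.18 by limma). Median scaling took it to -0.31 and past the threshold (adjusted p = 5.21e-05 by limma). EDEM1 shares 653 exon bases with an antisense gene, and whether the counting used strand is not given in the sources used here.

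The lectin chaperones of the folding cycle had the highest CPM of the set, although per kilobase of transcript PDIA4 was above CANX in control libraries. CANX (ENSG00000127022; chromosome 5, 179678628 to 179730925, plus strand) encodes calnexin, the lectin fixed in the ER membrane, and CALR (ENSG00000179218; chromosome 19, 12938578 to 12944489, plus strand) encodes its soluble relative calreticulin. CANX had 860 and 872 CPM in the controls against 1338 and 1365 CPM after knockdown. The mean rose from 866 ± 8.65 to 1351 ± 19.5 CPM, with a log2 fold change of 0.64 (SE 0.0339, adjusted p = 2.5e-13 by limma).

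CALR had 1097 and 1077 CPM in the controls against 1034 and 999 CPM after knockdown. The groups did not overlap, yet the difference was small, with a log2 fold change of -0.098 (SE 0.0345, adjusted p = 0.0161 by limma). The call was lost without control replicate 1 (-0.084), without siAARS1 replicate 2 (-0.073) and after quantile normalization (-0.046). It was also lost in edgeR with TMM (-0.060) and in DESeq2 (-0.045), both run on read counts recovered from the CPM. The ratio of CANX to CALR in CPM per kilobase was 0.350 and 0.362 in control and 0.578 and 0.611 in siAARS1 libraries. Calnexin transcripts were thus closer to calreticulin transcripts in both siAARS1 libraries, without any correction for GC content. CALR shares 270 exon bases with an antisense gene, and CANX shares 150 with CBY3 on the opposite strand. As for EDEM1, whether the counting used strand is not given.

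PDIA4 (ENSG00000155660; chromosome 7, 149003062 to 149028641, minus strand), a disulfide isomerase also called ERp72, had 700 and 710 CPM in the controls against 536 and 516 CPM after knockdown. Both siAARS1 libraries were below both controls, with means of 705 ± 7.18 and 526 ± 14.7 CPM. The log2 fold change of -0.42 (SE 0.0350, adjusted p = 5.8e-10 by limma) was the second lowest of the 10 genes.

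Per kilobase of reference transcript, the control order was CALR at 571 CPM per kilobase, then PDIA4 at 243, CANX at 203, XBP1 at 93.7, HERPUD1 at 22.0, SYVN1 at 16.3, SEL1L at 6.49, ATF6 at 6.14, EDEM1 at 5.83 and ERN1 at 2.37. No neighbours in this order overlapped between the 2 control libraries. In siAARS1 libraries CANX at 317 CPM per kilobase passed PDIA4 at 181, and SEL1L at 18.3 moved from the seventh place to the fifth, where its libraries overlapped those of HERPUD1 at 18.1. The rest kept their order, from CALR at 534 CPM per kilobase to ERN1 at 1.89. Together the 10 genes took 3097 and 3103 CPM in the controls against 3374 and 3349 CPM after knockdown, a sum that CANX carried. Without CANX, the other 9 genes summed to 2237 and 2230 CPM in the controls against 2036 and 1984 CPM after knockdown.

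GC content moved with the result across the whole table. When all genes tested were divided into 5 equal groups by the GC content of the reference transcript, the lowest group had a median log2 fold change of 0.77 and the highest one of -0.30. The 3 genes of the set that were higher have the 3 lowest GC contents, 39.4% in SEL1L, 41.3% in ATF6 and 41.6% in CANX. GC content was 45.2% in EDEM1, 47.9% in HERPUD1, 50.1% in XBP1, 50.8% in ERN1, 53.0% in PDIA4, 53.9% in CALR and 58.9% in SYVN1. The rank correlation between log2 fold change and GC content was -0.66 over the 10 genes and -0.65 over all genes tested, as a description of genes that share the same 4 libraries.

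**Figure D2:**
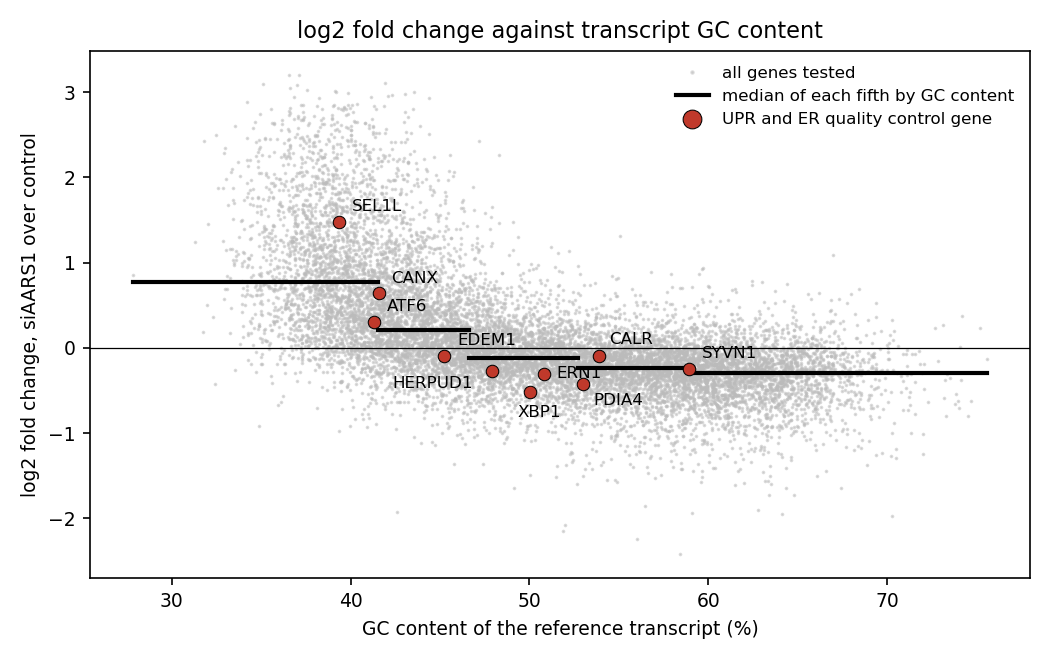
log2 fold change (siAARS1 over control, log2(CPM + 1) scale) against GC content of the reference transcript in percent, with all genes tested in grey, the 10 UPR and ER quality control genes in red and black lines for the median of each of 5 equal groups by GC content. SEL1L, CANX and ATF6 sit on the left among genes with a group median of 0.77 or 0.21, and the 6 genes called lower sit where group medians are -0.12 and -0.24.

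The differences were therefore also computed after a smooth trend over GC content and length of the reference transcript had been taken out of each library (the transcript correction), a step that removes any true change following these properties as well. XBP1 (-0.37), HERPUD1 (-0.23), PDIA4 (-0.22) and ERN1 (-0.20) stayed lower and past the threshold. SEL1L stayed higher, at 0.15 (adjusted p = 0.00191 by limma). CANX turned to -0.090 and ATF6 to -0.75, CALR turned to 0.15, and EDEM1 went to -0.41, all past the threshold. SYVN1 was at 0.059 and not past it (adjusted p = 0.274 by limma). In this fit 9 of the 10 genes were called, beside 65.7% of all genes tested.

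Another correction (the region correction) used GC content and length of the coding sequence and of the 3' UTR in the same way. It called 6 of the 10 genes and 64.5% of the 12010 genes it could test. XBP1 (-0.24), PDIA4 (-0.26) and HERPUD1 (-0.11) were again lower and SEL1L again higher, at 0.58. ATF6 (-0.39) was called lower and CALR (0.15) higher, whereas ERN1 (-0.13), EDEM1 (-0.11), CANX (-0.038) and SYVN1 (0.073) did not pass. XBP1, PDIA4, HERPUD1 and SEL1L thus kept their direction and their call in all 16 fits made, whereas CANX and ATF6 were lower in the 3 fits with a correction and higher in the other 13, with ATF6 short of the threshold under median scaling. The part of GC content in these differences was not tested beyond these fits.

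**Figure D3:**
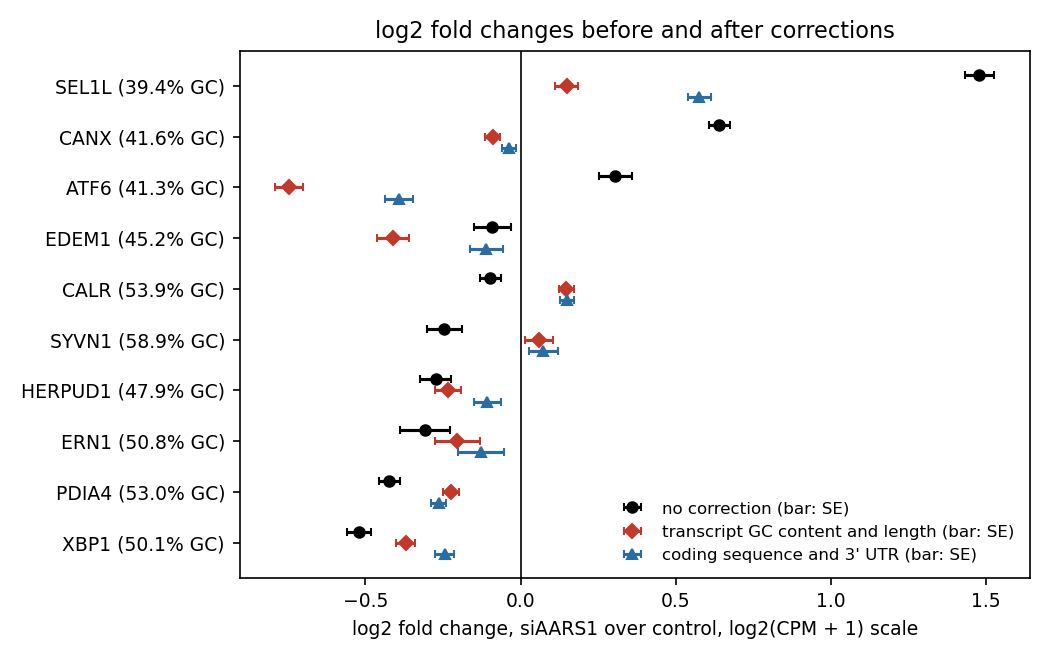
log2 fold change of each of the 10 genes (siAARS1 over control, x axis) with no correction (black), after the correction for transcript GC content and length (red) and after that for the coding sequence and 3' UTR (blue), with bars for the SE from limma (n = 2 libraries in each group). XBP1, PDIA4, ERN1 and HERPUD1 lie left of 0 in all 3, SEL1L lies right of 0 in all 3, and CANX and ATF6 cross from right to left.

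The promoter search also covered genes of the lists below, but only those with a promoter among the RefSeq ones used. Of the 11 genes with an ERSE or ERSE-II in the set or these lists, 9 were called lower and 2 higher. Of all genes tested, 38% were called lower and 32.6% higher. The 2 higher genes were CANX and HSP90B1. The lower genes were XBP1, CALR and HERPUD1 of the set, and HSPA5, HYOU1, CRELD2, SDF2L1, PDIA6 and ERO1B (listed as ERO1LB). With the transcript correction 7 of these 11 genes were called lower and 3 higher. Of all 13819 genes in that fit, 4607 were called lower and 4477 higher, 65.7% in either direction. With the region correction 5 were called lower and 3 higher. Of all 12010 genes in that fit, 3774 were called lower and 3978 higher, 64.5% in either direction. The 3 higher genes were HSP90B1, CALR and CRELD2 in both fits, with CALR at 0.15 and CRELD2 at 0.14 in each. The matched letters describe these windows and do not show which factor acts there.

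The 6 lists of other ER genes, with 113 of 114 genes in the table, place the set among its partners. Their counts stand beside 70.7% of all genes tested that were called, 32.6% higher and 38% lower. In UPR signalling, 18 of 22 genes were called, 6 higher and 12 lower, with a median log2 fold change of -0.21. EIF2AK3, which encodes PERK, was higher, as ATF6 was. It had 15.0 and 15.1 CPM in the controls against 23.6 and 25.2 CPM after knockdown, a log2 fold change of 0.66 (adjusted p = 1.4e-07 by limma), and 0.31 after the transcript correction but -0.20 after the region correction. The transcription factors below PERK were lower. ATF4 had 525 and 499 CPM in the controls against 441 and 434 CPM after knockdown, a log2 fold change of -0.23 (adjusted p = 1.1e-05 by limma) that was 0.058 after the transcript correction and -0.059 after the region correction, and did not pass in either.

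DDIT3, the stress factor CHOP, was at -0.26 (adjusted p = 0.0445 by limma). Its call was lost without control replicate 1 (-0.23), control replicate 2 (-0.29) or siAARS1 replicate 1 (-0.10), in edgeR with TMM (-0.24) and DESeq2 (-0.22), and under both corrections. ATF3 (-0.77), the pseudokinase gene TRIB3 (-0.65) and PPP1R15A (-0.56), whose product reverses the action of PERK, were the largest falls of the list. All 3 kept their fall and their call under both corrections, at -0.59, -0.32 and -0.25 in that for transcript GC content and length. The proteases that cleave ATF6 in the Golgi went apart, with MBTPS2 at 0.54 and MBTPS1 at -0.11. The call of MBTPS1 was lost without control replicate 1 (-0.11), control replicate 2 (-0.11) or siAARS1 replicate 2 (-0.093). It was also lost in edgeR with TMM (-0.077), in DESeq2 (-0.062) and under the transcript (0.0096) and region (-0.057) corrections. The largest rise was in NFYB (0.81), a subunit of the factor NF-Y that binds the CCAAT of ERSE. NFYB and MBTPS2 turned to -0.25 and -0.36 with the transcript correction. RTCB, the ligase that joins the XBP1 exons after IRE1 cuts, had 113 and 112 CPM in the controls against 113 and 113 CPM after knockdown (log2 fold change 0.0041, adjusted p = 0.94 by limma). It was called lower after median scaling (-0.22) and higher after the transcript correction (0.13).

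Among ER chaperones, 14 of 15 genes were called, 6 higher and 8 lower, and their median was -0.11. HSP90B1, the ER member of the HSP90 family, had 196 and 194 CPM in the controls against 550 and 579 CPM after knockdown. Its log2 fold change was 1.53 (SE 0.0371, adjusted p = 5.05e-19 by limma), and it remained 1.05 and 0.40 after the corrections for transcript and for coding sequence and 3' UTR. HSPA5, the master chaperone BiP that holds the UPR sensors inactive, had 852 and 859 CPM in the controls against 792 and 795 CPM after knockdown. Its small fall of -0.11 (adjusted p = 0.00665 by limma) was lost in edgeR with TMM (-0.071), in DESeq2 (-0.057) and after quantile normalization (-0.057), and was -0.27 after both corrections.

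SEC63 (1.65) and DNAJC10 (1.60), both J-domain partners of BiP, were the largest rises of that list. SEC63 was at 0.40 after the transcript correction and 0.21 after the region correction. DNAJC10 was at 0.12 after the transcript correction and turned to -0.51 after the region correction. DNAJB9, a UPR target, was at 0.34, lost its call with median scaling (0.12) and quantile normalization (0.11), and turned to -0.23 under both corrections. The falls were led by SIL1 (-0.53), a nucleotide exchange factor of BiP, with SDF2L1 (-0.43) and MANF (-0.40). SDF2L1 lost its call after the region correction (-0.076).

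Of genes for disulfide formation, to which PDIA4 belongs by function, 13 of 17 were called, 4 higher and 9 lower, with a median of -0.15. QSOX1 (-0.85), a sulfhydryl oxidase, and PDIA5 (-0.65), another isomerase, were the largest falls and kept them after the transcript correction, at -0.61 and -0.44. The third, ERO1B (-0.38), had 5.04 and 4.60 CPM in the controls against 3.53 and 3.40 CPM after knockdown. Its call was lost without control replicate 1 (-0.33) or siAARS1 replicate 2 (-0.36) and in DESeq2 (-0.43). ERO1B was called lower under the transcript (-1.34) and region (-1.16) corrections, by more than without them. TMX3 (1.59), TMX1 (0.69) and ERP44 (0.41) were the largest rises, with TMX3 at 0.27 and 0.26 after the transcript and region corrections. ERO1A (listed as ERO1L), the main oxidase of the isomerases, was at 0.27 and lost its call with median scaling (0.051). ERP44 and ERO1A were called lower under both corrections. TMX1 was called lower under the transcript correction (-0.58) and did not pass under the region correction (-0.016). PDIA3, the isomerase that works with calnexin and calreticulin, was at -0.065 and did not pass (adjusted p = 0.0997 by limma). It was called lower with median scaling (-0.28), with the upper quartile in edgeR (-0.16) and under the transcript (-0.47) and region (-0.37) corrections.

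The N-glycan folding cycle, in which CANX and CALR hold their clients, had 10 of 10 genes called, 5 higher and 5 lower, with a median of 0.094. Its folding sensor UGGT1, which returns unfolded glycoproteins to the lectins, had 115 and 112 CPM in the controls against 192 and 194 CPM after knockdown, a log2 fold change of 0.76. UGGT2 was at 1.04. Calmegin (CLGN, 1.28), a relative of calnexin, and the cargo lectin LMAN1 (1.36) were the largest rises. The subunits of glucosidase II, which makes the glycan form that calnexin binds, were lower, with PRKCSH at -0.36 and GANAB at -0.24, as was LMAN2 at -0.28. With the transcript correction 4 of the 10 were called, beside 65.7% of all genes tested in that fit. LMAN1 (0.21) and CLGN (0.68) stayed higher in that fit, and UGGT1 (-0.027), UGGT2 (-0.048), PRKCSH (-0.025), GANAB (-0.028) and LMAN2 (0.039) did not pass. With the region correction UGGT1 (-0.70) and UGGT2 (-0.90) were called lower and LMAN2 (0.077) higher, and CLGN (0.17) did not pass.

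In ER-associated degradation, where SEL1L, SYVN1, HERPUD1 and EDEM1 act, 26 of the 32 other genes were called, 9 higher and 17 lower, with a median of -0.11. EDEM3 had the largest rise, at 1.84, and EDEM2 the largest fall, at -0.65, while their relative EDEM1 stood at -0.091. EDEM3 had 22.5 and 21.6 CPM in the controls against 79.5 and 83.7 CPM after knockdown, and stayed higher under both corrections, at 0.47 and 0.22. UBXN4 (1.62), which recruits the ATPase VCP to the membrane, also stayed higher, at 0.81 in both. JKAMP was at 0.48, and at -0.00028 with the transcript correction. HERPUD2 (-0.42), the relative of HERPUD1, was lower. The lectin OS9, which hands clients to SEL1L, was at -0.29 (adjusted p = 1.7e-06 by limma), and did not pass after the transcript (-0.056) or the region correction (-0.0495).

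In the translocon and signal peptidase, through which proteins enter the ER, 10 of 17 genes were called, 4 higher and 6 lower, with a median of 0.0053. SEC62 had 19.9 and 21.6 CPM in the controls against 78.3 and 80.8 CPM after knockdown, a log2 fold change of 1.89 that was 0.35 and 0.84 after the corrections. It rose with its partner SEC63, whereas SSR2 (-0.34) and SSR4 (-0.33), subunits of the translocon-associated protein complex, and SRPR (-0.26), a receptor of the signal recognition particle, were lower. SSR4 was at 0.0090 with the transcript correction. SSR1 (0.65) and SPCS3 (0.32) were higher, SPCS3 not past the threshold with median scaling (0.0985). Both turned after the transcript correction, to -0.62 and -0.996. After the region correction SSR1 was called higher (0.16) and SPCS3 lower (-0.28).

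**Figure D4:**
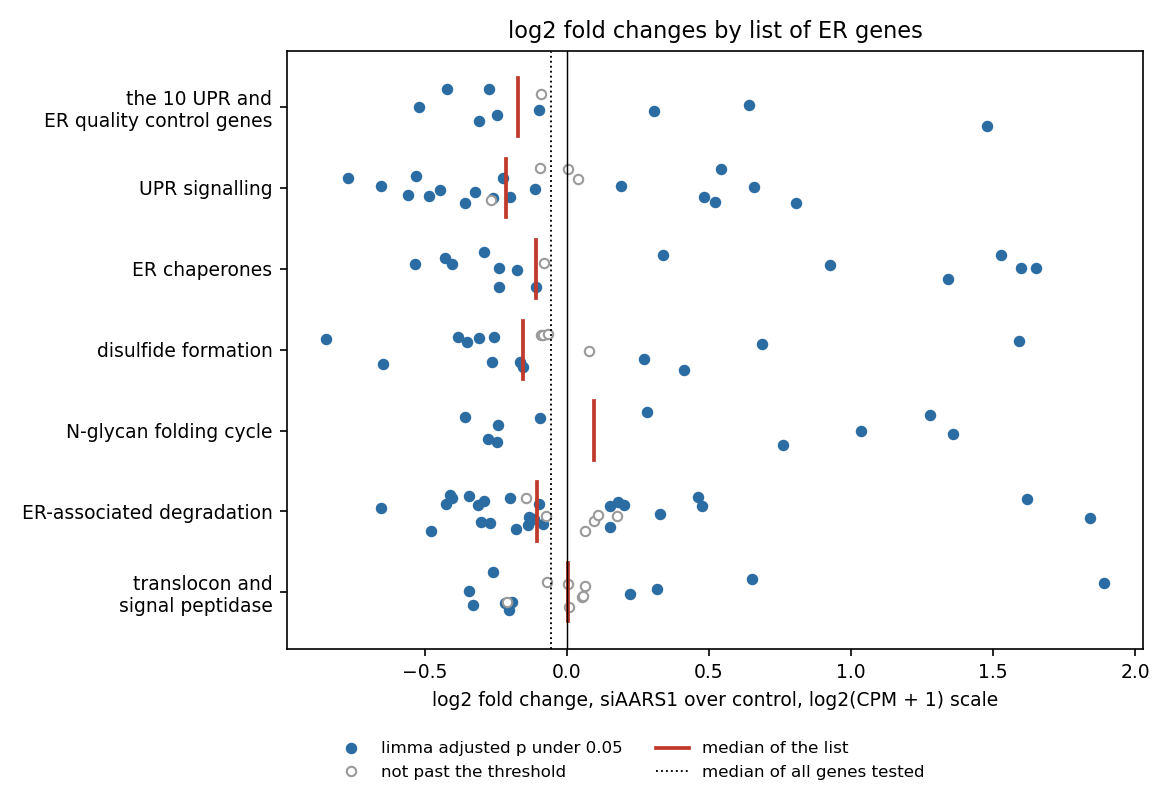
log2 fold change (siAARS1 over control, x axis) of the 10 UPR and ER quality control genes and of 6 lists of other ER genes, with filled points for genes past the limma threshold, open points for genes not past it, red lines for the list medians and a dotted line for the median of all genes tested (-0.054). Each list holds genes on both sides of 0, with medians from -0.21 in UPR signalling to 0.094 in the N-glycan folding cycle.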

How the data were processed

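RNA-Seq values of 4 libraries were used. The authors deposited CPM per gene. RSEM 1.3.3 and the genome build hg38 are named in the submitters' processing notes, and the aligner, the annotation and the use of strand are not given in the sources used here. CPM corrects neither for gene length nor for GC content. For 100% of values the CPM was a whole multiple of 1 read (within 0.1 read), so read counts could be recovered. A level of 3 reads, the limit that a count of 0 allows for counting error only, was 0.0880 to 0.0971 CPM. Replicates were compared first (chi-square per gene 3.63 and 3.62, above sampling noise), and all 4 libraries were kept.

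Groups and replicate numbers came from the sample titles. limma 3.58.1 (R 4.3.3, eBayes with trend) was fitted to log2(CPM + 1) for the 14199 genes whose mean reached 1 CPM in either group, with the group as the only term. Fold changes on this scale are understated for low genes. The threshold was an adjusted p-value of 0.05. Alternatives were a pseudocount of 0.1, no filter, median scaling, quantile normalization, the replicate number as a block, each library left out, a threshold of 0.01, edgeR 4.0.16 (TMM or upper quartile) and DESeq2 1.42.0 on the recovered reads, and a smooth correction for transcript GC content and length (mgcv 1.9.3; the transcript correction). The region correction, over coding sequence and 3' UTR, was chosen after seeing the data. edgeR with TMM called 9806 and DESeq2 8355 genes. The main limma fit, edgeR with TMM, DESeq2 and the transcript correction were run on simulated data. The region correction and the other alternatives were not.

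The 10 genes and the 6 lists were chosen with earlier results of these data known. Genes named are AARS1, the 10 genes, 14 well-known partners (HSPA5, HSP90B1, PDIA3, EIF2AK3, ATF4, DDIT3, MBTPS1, MBTPS2, RTCB, UGGT1, OS9, DNAJB9, SDF2L1 and ERO1A) and, of each list, up to 3 called genes with the largest rise and up to 3 with the largest fall. Genes of the promoter search and EDEM1's relatives are named with them. A gene that this rule chose is not reported here. Coordinates, lengths and GC content are those of GENCODE v29 (GRCh38), and promoters are those of RefSeq. Transcript properties were found for 97.2% of genes.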

Additional observations from a re-analysis of the deposited data

How the results depend on the processing

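Of the 57 genes that the rule for named genes chose, 57 kept direction and call with a pseudocount of 0.1, without the filter and with the replicate number as a block, and 50 to 55 did so under the other scalings and tests and without each library. The transcript correction kept 31 and the region correction, chosen after seeing the data, 29. For every change listed here, the cause was not tested.

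With the replicate block 10389 genes were called in place of 10032. The labels do not say that equal numbers mark pairs, and the deviations of same-numbered libraries from their group means correlated at 0.118 across genes over 2 pairs. The block gave CANX 0.64, XBP1 -0.52 and the same calls for all 10 genes.

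Median scaling moved the median of all genes from -0.054 to -0.27 and the share of calls that were higher from 46.2% to 28.8%. Quantile normalization and the upper quartile each moved that median to -0.15. Of the 10 genes, ATF6 then lost its call under median scaling, CALR lost its call under quantile normalization, and EDEM1 gained one under all 3. RTCB reversed, to -0.22 with median scaling, -0.017 with quantile normalization and -0.089 with the upper quartile, and it ran from -0.0050 to 0.013 with each library left out.

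The transcript correction, with or without the replicate block, reversed CANX to -0.090, ATF6 to -0.75, CALR to 0.15, SYVN1 to 0.059, DNAJB9 to -0.23, JKAMP to -0.00028, UGGT2 to -0.048, UGGT1 to -0.027, LMAN2 to 0.039, NFYB to -0.25, MBTPS2 to -0.36, MBTPS1 to 0.0096, ATF4 to 0.058, TMX1 to -0.58, ERP44 to -0.70, ERO1A to -0.94, SSR1 to -0.62, SPCS3 to -0.996 and SSR4 to 0.0090. It left 4 of 10 genes of the N-glycan folding cycle called, beside 65.7% of all genes tested in that fit. The region correction left 6 of those 10 called and 17 of the 32 in ER-associated degradation, beside 64.5% of all genes it tested. It reversed CANX to -0.038, ATF6 to -0.39, CALR to 0.15, SYVN1 to 0.073, DNAJC10 to -0.51, DNAJB9 to -0.23, JKAMP to -0.025, UGGT2 to -0.90, UGGT1 to -0.70, LMAN2 to 0.077, EIF2AK3 to -0.20, MBTPS2 to -0.18, DDIT3 to 0.019, TMX1 to -0.016, ERP44 to -0.56, ERO1A to -0.88 and SPCS3 to -0.28.

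With each library left out, 8908 to 9283 genes were called. With n = 2 in each group and a lone library assumed to vary like the other group, these fits check single libraries only.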
